A study of Homo sapiens with 26 samples.

Results

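The integrins and laminins with which epithelial cells hold on to their basement membrane were followed in MDA-MB-468, an established human cell line of triple-negative breast cancer. Signalling through Notch receptors was blocked, released or activated, and some of the treatments were antibodies directed at the receptor NOTCH3. The genes are those of the hemidesmosome integrin (ITGA6, ITGB4), of other epithelial integrins (ITGA2, ITGA3, ITGB1, ITGB6), of laminin-332 (LAMA3, LAMB3) and of the hemidesmosome collagen COL17A1, taken as a list of 9 genes by name. Of these 9, 6 were analysed among 19775 genes measured: ITGB4, ITGA6, ITGB1, ITGA2, ITGA3 and LAMB3. The probe sets of ITGB6 also carry another gene's symbol and were not used, and LAMA3 and COL17A1 are not analysed here. The list was drawn up with earlier results of these data known, so its choice is no evidence of a direction.

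Total RNA of the cells was hybridised to 26 Affymetrix HG-U133 Plus 2.0 arrays in 2 experiments. In the antagonism experiment, cells received for 24 h either control IgG at 10 µg/ml with 0.05% DMSO (3 arrays), the same IgG with 5 µM DAPT, a gamma-secretase inhibitor that stops the cleavage of all Notch receptors (3 arrays), or the NOTCH3 antibody A4 at 10 µg/ml with 0.05% DMSO (2 arrays). In the agonism experiment there were 6 groups of 3 arrays each. Cells of 5 groups were held in 5 µM DAPT for 16 h, washed for 2 h and then kept for 24 h with DAPT again, control IgG at 20 µg/ml, the NOTCH3 antibody A13 at 20 µg/ml, beads carrying an Fc fragment, or beads carrying the Notch ligand JAG1 fused to Fc. The sixth group, DMSO at 0.05%, had never received DAPT. The DAPT and DMSO plates were given their compound once more 22 h into this period, and the labels name no second dose for the others. All groups are of 1 cell line, and no label states whether replicate arrays stem from different cultures (1 DMSO plate is described). Each p-value therefore reflects only the scatter among these arrays, part of which may be technical.

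Integrins are receptors made of 1 alpha and 1 beta chain that bind matrix outside the cell and the cytoskeleton inside it. The alpha6-beta4 integrin binds laminin-332 and ties it, through plectin and the plakin BPAG1, to keratin filaments, forming the hemidesmosome. The beta1 chain pairs with many alpha chains, among them alpha2 in a collagen receptor and alpha3 in a laminin receptor, and these gather talin, zyxin and paxillin into focal adhesions linked to actin. Basal-like breast cancer cells are known to express alpha6-beta4.

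Levels are log2 of the deposited linear intensity, changes are differences of group means of that log2 level with their standard error (SE), and a gene was called higher or lower at a Benjamini-Hochberg adjusted p under 0.05 in limma over all 19775 genes. The epithelial markers EPCAM, CDH1, KRT8, KRT18 and EGFR were measured in 5 of 5 cases and lay above 91.9% or more of all genes in both experiments. Of the basal markers KRT5 lay above 97.7%, KRT14 above 66.3% and VIM above 78.4% in the agonism experiment. The same markers lay above 97.0%, 68.8% and 56.6%, in that order, in the antagonism experiment. No value is given here for the basal markers KRT6A and TP63. In the antagonism experiment 5 fibroblast markers lay above a median of 45.5% of genes, with COL1A1 highest, above 73.4%. There 3 endothelial markers lay above a median of 40.3%, and of 3 leukocyte markers CD14 lay above 87.3% and PTPRC above 11.8%. The receptors by which triple-negative cells are defined lay above 39.1% (ESR1), 17.5% (PGR) and 72.7% (ERBB2) of genes there, and no detection call is given for any of them. Among genes known to respond to Notch, MYC fell by 1.34 with DAPT and by 1.15 with A4 in the antagonism experiment, fell by 1.21 with DAPT in the agonism experiment, and rose by 1.33 with A13 and by 0.80 with JAG1. NRARP rose by 1.90 with A13 and by 1.01 with JAG1, and was not called with DAPT in either experiment (adjusted p = 0.286 in antagonism and 0.0563 in agonism) or with A4 (adjusted p = 0.342). HES1 was called lower with DAPT (-0.50 in antagonism and -0.39 in agonism) and with A4 (-0.65). NOTCH3 and OLFM4 were also called lower with DAPT in both experiments and with A4. Arrays of a group differed from each other with an SD of the log2 difference of 0.14 to 0.19 in the agonism experiment, and of up to 0.32 between controls 2 and 3 of the antagonism experiment. In RNA from whole cultures, fewer cells of a kind and less RNA per cell cannot be told apart.

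For ITGA6, ITGA2 and ITGB1, which were all higher with DAPT in the agonism experiment but parted after its removal, the 250 bases before the annotated transcript start are shown from RefSeq (assembly GRCh38.p14, each read 5′ to 3′ on the gene's strand). Windows were found for 7 of the 9 listed genes, 11 windows in all. ITGA6 and ITGB1 have a second window each, which is not shown. The ITGA6 window shown is chr2:172427086-172427335 on the plus strand, the only ITGA2 window is chr5:52989102-52989351 on the plus strand, and the ITGB1 window shown is chr10:32958231-32958480 on the minus strand. Capitals mark a match to 1 of 3 motifs searched on both strands: TGGGAA, the core bound by the Notch effector RBPJ, TGANTCA, bound by AP-1, and CACGTG, an E-box bound by MYC and related factors.
ITGA6: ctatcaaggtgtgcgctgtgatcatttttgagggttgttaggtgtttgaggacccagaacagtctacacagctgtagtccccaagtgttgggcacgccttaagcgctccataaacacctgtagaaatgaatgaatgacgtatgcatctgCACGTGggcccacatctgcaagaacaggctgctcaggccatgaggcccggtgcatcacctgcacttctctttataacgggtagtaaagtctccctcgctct
ITGA2: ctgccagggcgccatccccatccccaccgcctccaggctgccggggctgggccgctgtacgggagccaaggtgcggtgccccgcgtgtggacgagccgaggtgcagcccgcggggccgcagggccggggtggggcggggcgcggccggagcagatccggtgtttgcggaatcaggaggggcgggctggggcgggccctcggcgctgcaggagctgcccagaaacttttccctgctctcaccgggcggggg
ITGB1: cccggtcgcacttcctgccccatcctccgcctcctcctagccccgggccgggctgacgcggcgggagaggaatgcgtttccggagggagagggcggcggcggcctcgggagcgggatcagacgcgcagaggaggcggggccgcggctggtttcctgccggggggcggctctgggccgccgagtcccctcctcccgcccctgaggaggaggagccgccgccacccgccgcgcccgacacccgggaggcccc
The ITGA6 window shown holds 1 CACGTG, which lies 101 to 96 bases before the start and is present in 6.34% of 35097 windows of this length. The ITGA2 and ITGB1 windows shown, and the second windows of ITGA6 (GC content 71.6%) and ITGB1 (41.6%), hold none of the 3 motifs. TGGGAA is present in 20.9% of all windows and in 0 of the 11 windows of the listed genes, TGANTCA in 6.57% of all windows and in 2 of the 11 (1 of LAMB3 and 1 of LAMA3), and CACGTG in 1 of the 11. In the windows shown, GC content was 50.8% for ITGA6, 76.4% for ITGA2 and 78.4% for ITGB1. A match or its lack describes these letters alone.

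The hemidesmosome integrin was higher when Notch cleavage was blocked in the agonism experiment, and its beta chain moved most. ITGB4, which carries the long cytoplasmic tail that holds plectin, had log2 levels of 8.61, 8.73 and 8.75 on the DMSO arrays and of 9.53, 9.68 and 9.80 on the DAPT arrays. The DAPT arrays all lay above the DMSO arrays. With DAPT against control in the antagonism experiment, also 3 and 3 arrays, 17.9% of all genes had arrays without overlap. No such share is given here for the agonism comparisons. The change was 0.98 ± 0.09 (SE, n = 3 and 3), or 1.97-fold, with an adjusted p of 2.37e-06 and a 95% interval of 0.78 to 1.17. By absolute size it ranked 34th of 19775 genes in this comparison. ITGA6, its alpha chain, had levels of 9.80, 9.79 and 9.65 with DMSO and of 10.34, 10.23 and 10.38 with DAPT. Again no DAPT array was as low as a DMSO array, and the change of 0.57 ± 0.08 (adjusted p = 0.000147, 1.49-fold) ranked 305th.

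The collagen receptor chains rose as well. ITGA2, the alpha chain that binds collagen, had levels of 7.72, 7.70 and 7.70 with DMSO and of 8.46, 8.35 and 8.46 with DAPT, 2 sets that did not meet. Its change was 0.72 ± 0.08 (adjusted p = 8.92e-06, 1.65-fold) and ranked 111th. ITGB1, its beta chain, had levels of 12.41, 12.40 and 12.38 with DMSO and of 12.62, 12.55 and 12.64 with DAPT. The arrays did not overlap, and the change was small, 0.21 ± 0.06 (adjusted p = 0.0113, 1.15-fold). Without DAPT replicate 3 the ITGB1 change was 0.19 with an adjusted p of 0.0535, and over 14 alternatives the adjusted p ran from 0.000788 to 0.132.

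The laminin receptor and laminin chains did not pass. ITGA3, the alpha chain that pairs with beta1 to bind laminin-332, had levels of 8.50, 8.54 and 8.68 with DMSO and of 8.53, 8.49 and 8.61 with DAPT, which overlapped (change -0.03 ± 0.07, adjusted p = 0.823). LAMB3, the beta chain of laminin-332, had levels of 7.38, 7.26 and 7.23 with DMSO and of 7.50, 7.45 and 7.52 with DAPT. These arrays did not overlap, but the change of 0.20 ± 0.09 gave an adjusted p of 0.149. In all, 4 of the 6 genes were called higher and 0 lower, where 12.4% of all genes were called higher and 8.31% lower (2446 and 1643 genes, or 1867 and 2209 after centring each array on its median). With the arrays centred the same 4 genes kept their direction and call.

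**Figure D1:**
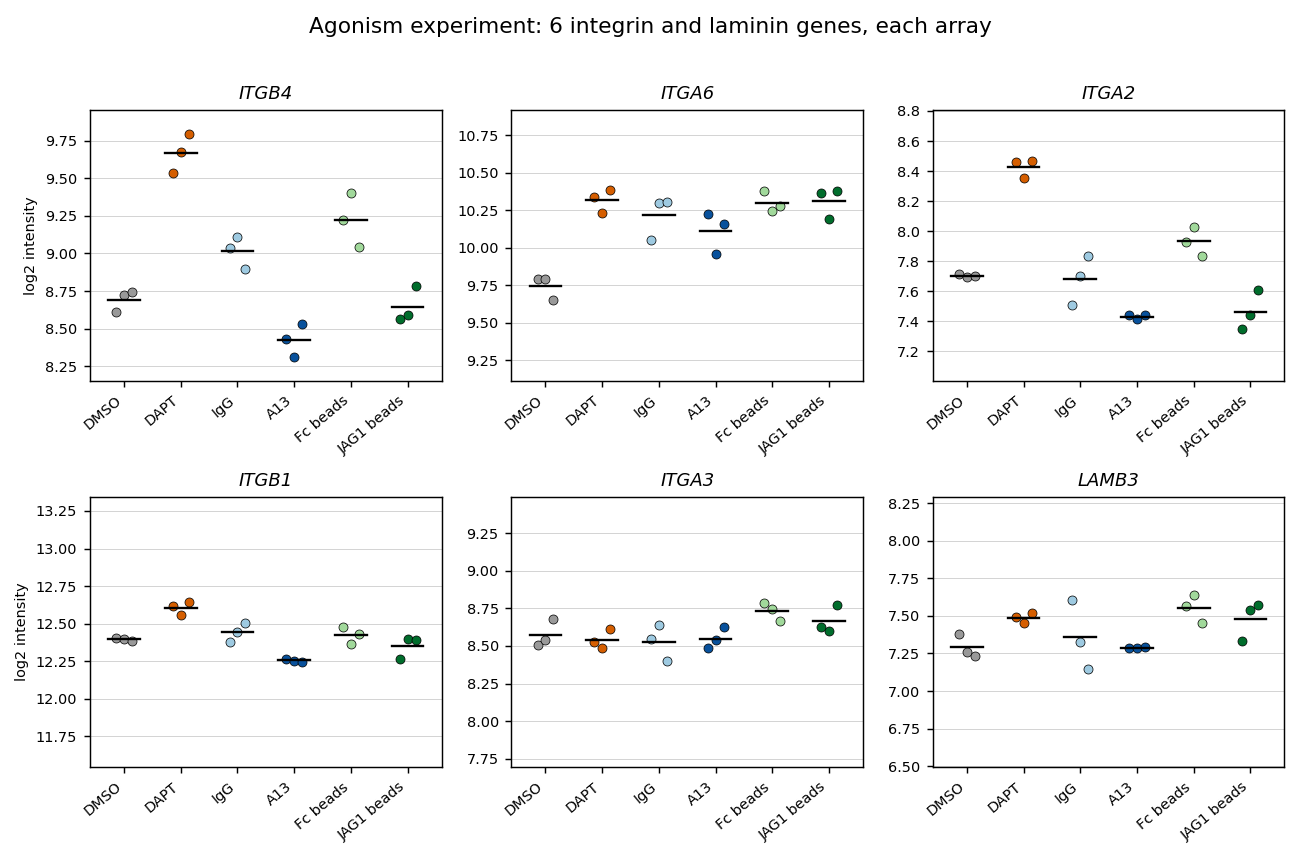
Log2 intensity (y axis) of the 6 genes on each array of the 6 groups of the agonism experiment (x axis), with a point for each of 3 arrays and a bar at the group mean. ITGB4 is highest with DAPT (9.53 to 9.80) and lowest with A13 (8.31 to 8.53), ITGA2 follows the same order at its ends, and ITGA6 is lowest with DMSO (9.65 to 9.80).

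After DAPT was washed out and cells were kept with control IgG, ITGB4 and ITGA2 were lower than in cells kept in DAPT, and ITGA6 was not called. ITGB4 had levels of 9.04, 9.11 and 8.90 with IgG, all below the DAPT arrays, a change of -0.65 ± 0.09 (adjusted p = 0.000182). ITGA2 had levels of 7.51, 7.70 and 7.83, also all below the DAPT arrays, a change of -0.74 ± 0.08 (adjusted p = 6.02e-06). ITGA6 had levels of 10.05, 10.30 and 10.31, which overlapped the DAPT arrays, and its change of -0.10 ± 0.08 gave an adjusted p of 0.519. ITGB1 had levels of 12.38, 12.45 and 12.50, below every DAPT array, but at -0.16 ± 0.06 it did not pass (adjusted p = 0.0745, and 0.0137 to 0.593 over 14 alternatives). Of the 6 genes 2 were called lower and 0 higher, where 5.62% of all genes were called lower and 9.77% in either direction.

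Against cells that had never received DAPT, the washed cells with IgG had more mRNA of both hemidesmosome chains, and ITGA2 was not called different. ITGA6 was higher with IgG than with DMSO by 0.47 ± 0.08 (adjusted p = 0.000356), and the 2 sets of arrays did not overlap. ITGB4 was higher by 0.32 ± 0.09 (adjusted p = 0.0143). That ITGB4 call was lost without DMSO replicate 1 (0.28, adjusted p = 0.0704) and without IgG replicate 2 (0.27, adjusted p = 0.0708), with adjusted p from 0.00511 to 0.716 over 14 alternatives. ITGA2 differed by -0.02 ± 0.08 (adjusted p = 0.872), with a 95% interval of -0.19 to 0.14. Thus 2 of 6 genes were called higher, where 17.9% of all genes were (3548 higher and 2501 lower, or 2602 and 2996 with each array centred). Of the genes known to respond to Notch, MYC (0.24), HES1 (0.29), NRARP (0.22) and NOTCH3 (0.60) were called higher with IgG than with DMSO. OLFM4 (-0.07) was not called. These 2 groups differ in the earlier DAPT, in the IgG and in the DMSO given, and the part of each cannot be told apart. The IgG arrays are also the reference for A13, and the DAPT arrays enter both the blockade and the washout comparison, so these comparisons share samples.

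Activation of NOTCH3 with the antibody A13 was accompanied by a further fall of ITGB4. Its levels with A13 were 8.43, 8.31 and 8.53, below each IgG array, and the change was -0.59 ± 0.09 (adjusted p = 0.000232, 0.66-fold). ITGA2 had levels of 7.44, 7.41 and 7.44 with A13, below each IgG array, and changed by -0.25 ± 0.08 (adjusted p = 0.0391). ITGB1 had levels of 12.27, 12.25 and 12.25, also below each IgG array, and changed by -0.19 ± 0.06 (adjusted p = 0.0277). With A13, 3 of the 6 genes were called lower and 0 higher, where 9.02% of all genes were called lower and 5.68% higher (1124 higher and 1784 lower, or 1483 and 1386 with each array centred). With each array centred 1 of the 6 genes was called, and ITGA2 (-0.22, adjusted p = 0.0760) and ITGB1 (-0.15, adjusted p = 0.0748) were not.

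The ITGA2 and ITGB1 calls with A13 lie close to the threshold. Each was lost when any 1 of A13 replicates 1, 2 and 3 or IgG replicates 2 and 3 was left out. Without IgG replicate 3, ITGA2 changed by -0.18 (adjusted p = 0.180) and ITGB1 by -0.16 (adjusted p = 0.111). Over 14 alternatives the adjusted p ran from 0.00791 to 0.180 for ITGA2 and from 0.0028 to 0.185 for ITGB1. ITGA6 had levels of 10.23, 9.96 and 10.16 with A13, which overlapped the IgG arrays (change -0.11 ± 0.08, adjusted p = 0.500). ITGA3 (8.48, 8.54 and 8.63) and LAMB3 (7.29 on each of the 3 arrays) overlapped the IgG arrays as well, with changes of 0.02 and -0.07.

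The ligand gave the same directions for ITGB4 and ITGA2. ITGB4 had levels of 9.22, 9.40 and 9.04 with Fc beads and of 8.56, 8.59 and 8.78 with JAG1 beads, all of the latter lower, a change of -0.58 ± 0.09 (adjusted p = 0.000698). That call was lost with the mean of all ITGB4 probe sets (-0.27, adjusted p = 0.0756), and 1 of the 5 probe sets was called lower. ITGA2 had levels of 7.93, 8.03 and 7.84 with Fc beads and of 7.35, 7.44 and 7.61 with JAG1 beads, again without overlap, a change of -0.47 ± 0.08 (adjusted p = 0.000912). ITGB1 had levels of 12.48, 12.37 and 12.43 with Fc beads and of 12.26, 12.40 and 12.39 with JAG1 beads, which overlapped (change -0.07 ± 0.06, adjusted p = 0.515). ITGA6 had levels of 10.38, 10.24 and 10.28 with Fc beads and of 10.37, 10.19 and 10.38 with JAG1 beads, with a change of 0.01 (adjusted p = 0.970) and a 95% interval of -0.17 to 0.19. ITGA3 and LAMB3 each changed by -0.07, with arrays that overlapped. With JAG1, 2 of 6 genes were called lower, where 5.14% of all genes were called lower and 2.97% higher.

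The effects of both agonists, each against its own reference, were compared directly. The JAG1 effect minus the A13 effect was 0.02 for ITGB4, with a 95% interval of -0.26 to 0.30, and -0.22 for ITGA2, with an interval of -0.45 to 0.02 (adjusted p = 0.883). For ITGA6 it was 0.12, with an interval of -0.13 to 0.37. In this difference 0 of the 6 genes had an unadjusted p under 0.05, against 1173 of all 19775 genes. By limma 0 of the 6 were called in it, where 0.182% of all genes were called. Among genes known to respond to Notch, NRARP (-0.89, adjusted p = 0.000213), MYC (-0.53, adjusted p = 0.0419) and OLFM4 (-1.39, adjusted p = 0.000802) were called in it. HES1 (-0.11) and NOTCH3 (-0.23) were not. MYC also differed between the references, at 0.44 higher with Fc beads than with IgG (adjusted p = 0.0026). Its mean levels were 12.12 with JAG1 and 12.21 with A13. NRARP (0.08) and OLFM4 (0.20) were not called between the references. A difference in the ITGB4 effect of up to 0.30 lies within the interval. The reference groups themselves did not differ by a called amount in any of the 6 genes (Fc beads against IgG, 2.08% of all genes called). An unadjusted p under 0.05 was found for 4 of the 6, and for 2893 of all 19775 genes. ITGB4 was 0.21 and ITGA2 0.25 higher with Fc beads.

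**Figure D2:**
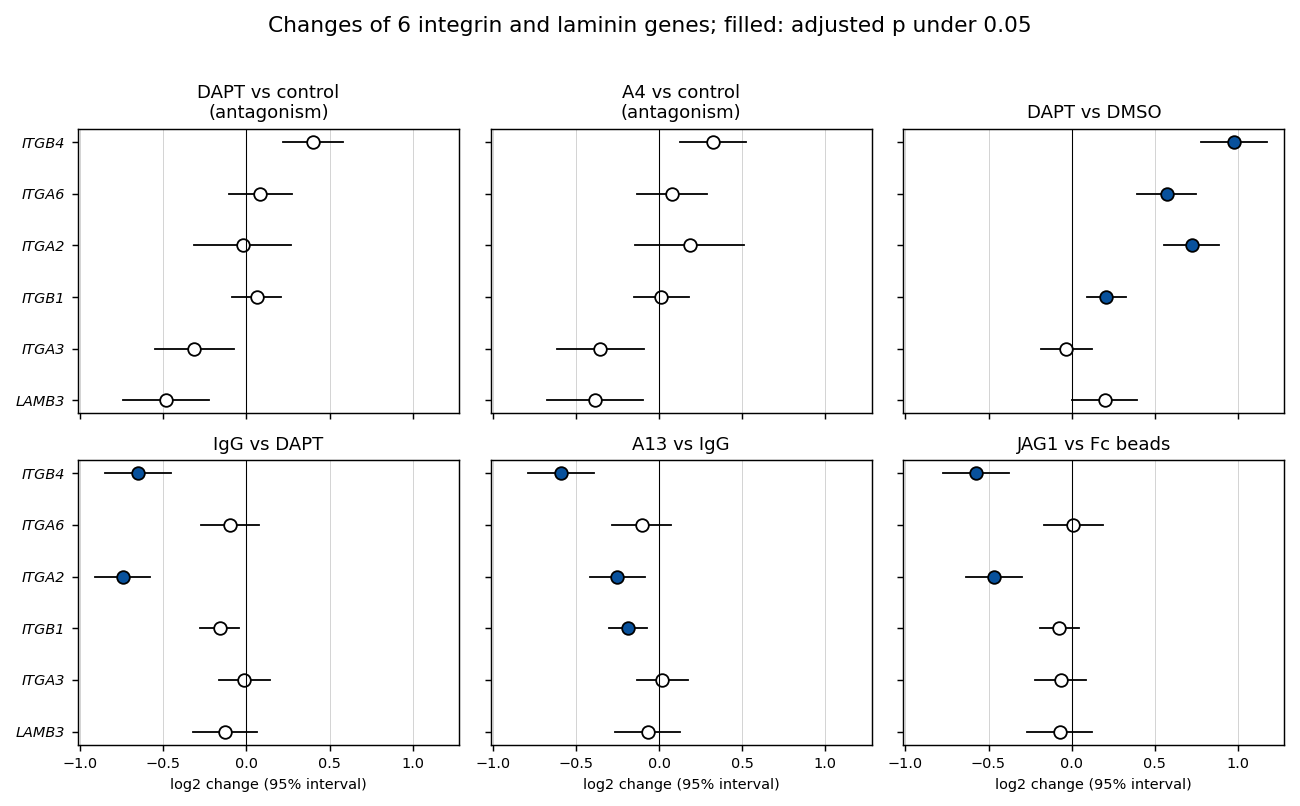
Log2 change (x axis) of each of the 6 genes (y axis) in 6 comparisons, with the 95% interval as a bar and filled points where the adjusted p was under 0.05. ITGB4 lies at 0.98 for DAPT against DMSO and at -0.65, -0.59 and -0.58 for IgG against DAPT, A13 against IgG and JAG1 against Fc beads, while ITGA6 is filled in the first of these alone.

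ITGB4, ITGA2 and ITGB1 had their highest group mean of the agonism experiment with DAPT and their lowest with A13. ITGB4 was lower by -1.25 ± 0.09 with A13 than with DAPT (adjusted p = 9.87e-09, 0.42-fold) and by -1.02 ± 0.09 with JAG1 (adjusted p = 1.13e-07). ITGA2 was lower by -0.99 ± 0.08 and -0.96 ± 0.08, and ITGB1 by -0.35 ± 0.06 and -0.25 ± 0.06, all 4 called. ITGA6 differed by -0.20 ± 0.08 with A13 (adjusted p = 0.0822) and by -0.01 with JAG1 (adjusted p = 0.965). In each of these 2 comparisons 3 of the 6 genes were called lower, where 16.2% of all genes were lower with A13 and 16.1% with JAG1. Both share the DAPT arrays.

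Ordered by level, the groups fell in a different sequence for each chain. For ITGB4 the means were 9.67 ± 0.13 (SD, n = 3) with DAPT, 9.22 ± 0.18 with Fc beads, 9.01 ± 0.11 with IgG, 8.69 ± 0.07 with DMSO, 8.65 ± 0.12 with JAG1 and 8.42 ± 0.11 with A13. Between neighbours in this order, DAPT exceeded Fc beads (adjusted p = 0.00207, where 9.65% of all genes were called higher) and IgG exceeded DMSO, while Fc beads and IgG, DMSO and JAG1, and JAG1 and A13 were not called different. For ITGA2 the means were 8.43 ± 0.06 with DAPT, 7.93 ± 0.10 with Fc beads, 7.70 ± 0.01 with DMSO, 7.68 ± 0.16 with IgG, 7.46 ± 0.13 with JAG1 and 7.43 ± 0.02 with A13. Here DAPT exceeded Fc beads (adjusted p = 0.000185) and Fc beads exceeded DMSO (adjusted p = 0.0300), and no lower pair of neighbours was called.

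ITGA6 had another order: DAPT 10.32 ± 0.08 (SD, n = 3), JAG1 10.31 ± 0.10, Fc beads 10.30 ± 0.07, IgG 10.22 ± 0.14, A13 10.11 ± 0.14 and DMSO 9.75 ± 0.08. The only called step between neighbours was the last, from A13 to DMSO (0.37, adjusted p = 0.00227). DMSO was called lower than each of the other 5 groups, with DMSO minus Fc beads at -0.55 (adjusted p = 4.50e-05) and DMSO minus JAG1 at -0.56 (adjusted p = 2.45e-05). Over all genes, the DMSO group was called lower for 21.7% against Fc beads, 23.1% against JAG1 and 17.9% against IgG, and A13 was called higher than DMSO for 15.7% and lower for 15.2%. All 5 other groups had received DAPT for 16 h at the start, and the part of that pretreatment, as against the DMSO plate itself, cannot be told apart. Relative to the same DMSO group, ITGB4 with A13 was lower by -0.27 (adjusted p = 0.0362) and ITGA2 with A13 by -0.27 (adjusted p = 0.0123).

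ITGB1 ran from 12.60 ± 0.05 (SD, n = 3) with DAPT to 12.26 ± 0.01 with A13, with no called step between neighbours. ITGA3 group means lay between 8.53 and 8.73 and those of LAMB3 between 7.29 and 7.55, with no called step between neighbours either. Of groups that were not neighbours, DMSO minus Fc beads was called for LAMB3 (-0.26, adjusted p = 0.0324), where 21.7% of all genes were called lower. The range of group means was 1.25 for ITGB4 (2.37-fold), 0.99 for ITGA2, 0.57 for ITGA6, 0.35 for ITGB1, 0.26 for LAMB3 and 0.20 for ITGA3.

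In the antagonism experiment 0 of the 6 genes were called by limma with DAPT or with the NOTCH3 antibody A4. ITGB4 had levels of 10.06, 10.02 and 10.24 in the control, of 10.44, 10.58 and 10.50 with DAPT, and of 10.40 and 10.46 with A4. Every treated array lay above every control, by 0.40 ± 0.08 with DAPT (adjusted p = 0.0850) and 0.32 ± 0.09 with A4 (adjusted p = 0.269). Without control replicate 2 the DAPT change of ITGB4 was 0.36 with an adjusted p of 0.0321, and it ran from 0.0304 to 0.572 over 15 alternatives. LAMB3 had levels of 8.99, 8.95 and 9.09 in the control, of 8.34, 8.72 and 8.52 with DAPT, and of 8.46 and 8.78 with A4. Here every treated array lay below every control, by -0.48 ± 0.11 (adjusted p = 0.132) and -0.39 ± 0.13 (adjusted p = 0.366). Without control replicate 2 the DAPT change was -0.51 with an adjusted p of 0.0347, within a range of 0.0347 to 0.425 over 15 alternatives.

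ITGA3 had levels of 9.21, 9.18 and 9.54 in the control, of 8.99, 8.90 and 9.10 with DAPT, and of 9.0 and 8.92 with A4. These sets did not overlap with the controls either, at -0.31 ± 0.10 (adjusted p = 0.250) and -0.35 ± 0.12 (adjusted p = 0.364). ITGA6 had levels of 11.01, 10.77 and 11.04 in the control, of 11.01, 11.00 and 11.05 with DAPT, and of 11.06 and 10.97 with A4, which overlapped. ITGA2 (control 8.69, 8.46 and 8.99, DAPT 8.61, 8.61 and 8.85, A4 8.85 and 8.94) and ITGB1 (control 12.56, 12.59 and 12.65, DAPT 12.60, 12.66 and 12.72, A4 12.59 and 12.63) overlapped as well. For ITGA2 the DAPT change was -0.02 ± 0.13, with a 95% interval of -0.31 to 0.27.

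Few genes of any kind were called in this experiment: 0.354% of all genes (70) with DAPT and 0.101% (20) with A4. At an unadjusted p under 0.05 there were 2572 and 1836 genes, and 3 of the 6 (ITGB4, ITGA3 and LAMB3) in each comparison. Without control replicate 2, 1198 genes were called with DAPT, and over the arrays left out the count ran from 11 to 1198. Arrays did not overlap between DAPT and control for 17.9% of all genes and between A4 and control for 24.9%, against 3 of 6 here in each. A4 and DAPT share the control arrays. Between A4 and DAPT themselves 0 of all genes were called by limma (1628 with an unadjusted p under 0.05), and the differences of the 6 genes lay between -0.07 and 0.20.

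**Figure D3:**
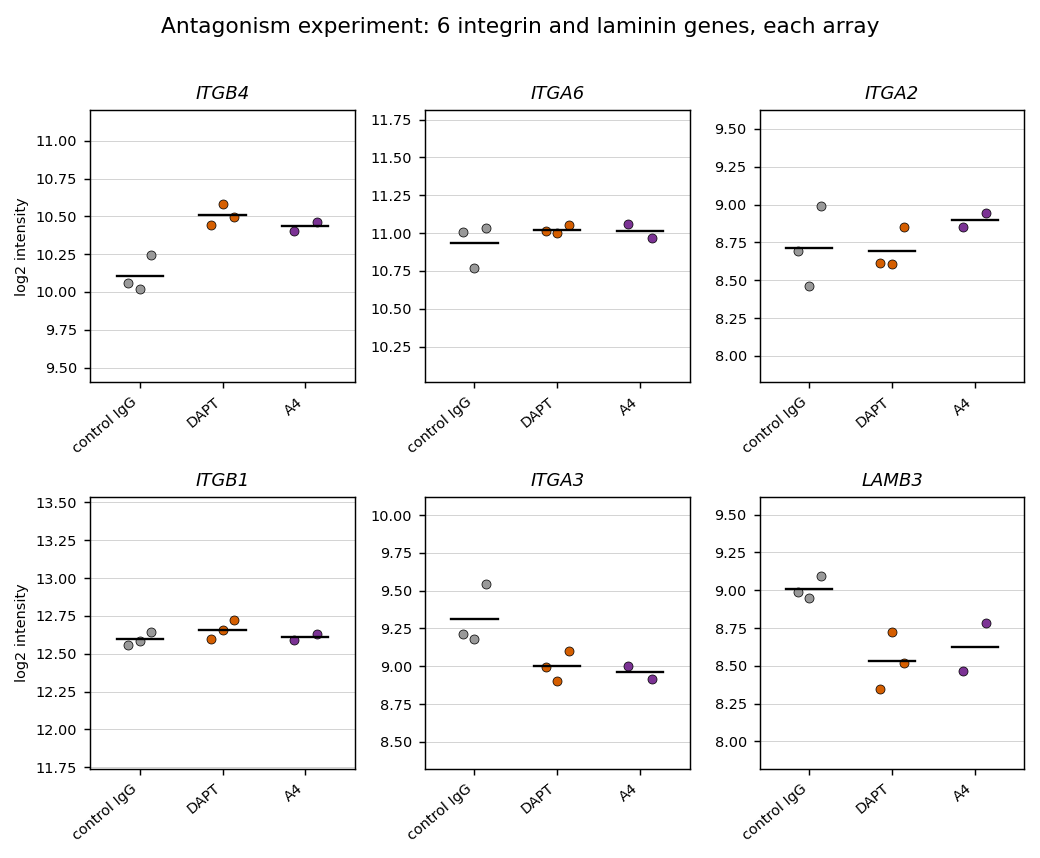
Log2 intensity (y axis) of the 6 genes on each array of the antagonism experiment (x axis: control IgG with 3 arrays, DAPT with 3 and A4 with 2), with a point for each array and a bar at the group mean. ITGB4 arrays lie higher with both treatments (10.40 to 10.58) than in the control (10.02 to 10.24), and LAMB3 arrays lie lower (8.34 to 8.78 against 8.95 to 9.09).

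The DAPT effect was compared between the experiments in 1 fit over all 26 arrays. The effect in the antagonism experiment minus that in the agonism experiment was -0.58 ± 0.13 for ITGB4 (adjusted p = 0.0134), -0.74 ± 0.14 for ITGA2 (adjusted p = 0.00601), -0.49 ± 0.12 for ITGA6 (adjusted p = 0.0215) and -0.68 ± 0.15 for LAMB3 (adjusted p = 0.0111). For ITGB1 it was -0.15 ± 0.08 (adjusted p = 0.273) and for ITGA3 -0.28 ± 0.12 (adjusted p = 0.174). Thus 4 of 6 genes were called lower in the difference, where 3.27% of all genes were (564 higher and 647 lower, or 908 and 389 with each array centred). For ITGB4 both effects were above 0, and for LAMB3 they lay on opposite sides of 0 (-0.48 and 0.20), neither of them called alone.

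Some of these calls rest on single arrays. The ITGB4 difference was lost without agonism DAPT replicate 3 (-0.51, adjusted p = 0.0507, with a range of 0.00427 to 0.924 over 21 alternatives). The ITGA6 difference was lost without antagonism control replicate 1, antagonism DAPT replicate 2, agonism DMSO replicate 3 or agonism DAPT replicate 3 (adjusted p = 0.0590, 0.0511, 0.0791 and 0.0667, with a range of 0.00453 to 0.0857). The ITGA2 difference was called under 20 of 21 alternatives and was lost in the fit of the compared groups alone (-0.74, adjusted p = 0.0651, with a range of 0.000673 to 0.0651). Its second probe set (205032_at) gave a difference of -0.11. The LAMB3 difference was called under all 21 alternatives, with an adjusted p of at most 0.0461. The experiments also differed in the number of cells plated (2500000 and 6250000), in the earlier DAPT exposure and in the IgG given to the control. The part of each cannot be told apart. For antagonism 40 h of growth before treatment is stated, and for agonism no such period is named.

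Probe sets of the same gene did not all respond alike. Of the 5 single-gene probe sets of ITGB4, 3 rose with DAPT in the agonism experiment, by 0.98 (204990_s_at), 1.03 (204989_s_at) and 0.79 (211905_s_at), and 2 did not pass, at 0.00 (230704_s_at) and 0.11 (214292_at, the dimmest at a mean level of 5.78). With p-values adjusted over all single-gene probe sets, 3 of the 5 fell with A13 and 1 fell with JAG1. In the antagonism experiment the 5 changes with DAPT were 0.40, 0.13, 0.27, 0.32 and 0.16, and those with A4 were 0.32, 0.36, 0.42, -0.17 and -0.08, in the order above and with 0 called. When only probe sets without the _x_at or _s_at ending were kept, ITGB4 was left with 214292_at, and all 8 of its calls were lost.

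Both ITGA6 probe sets rose with DAPT in the agonism experiment, by 0.57 and 0.53, and both ITGA2 probe sets rose, by 0.72 (227314_at) and 0.28 (205032_at). With JAG1 the brighter ITGA2 probe set was called, at -0.47, and the other was not, at -0.18. Of the 7 probe sets of ITGB1, the 3 brightest rose with DAPT, by 0.21, 0.33 and 0.30, and the other 4, with mean levels from 3.61 to 5.79, did not pass. ITGA3 and LAMB3 had 1 single-gene probe set each.

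**Figure D4:**
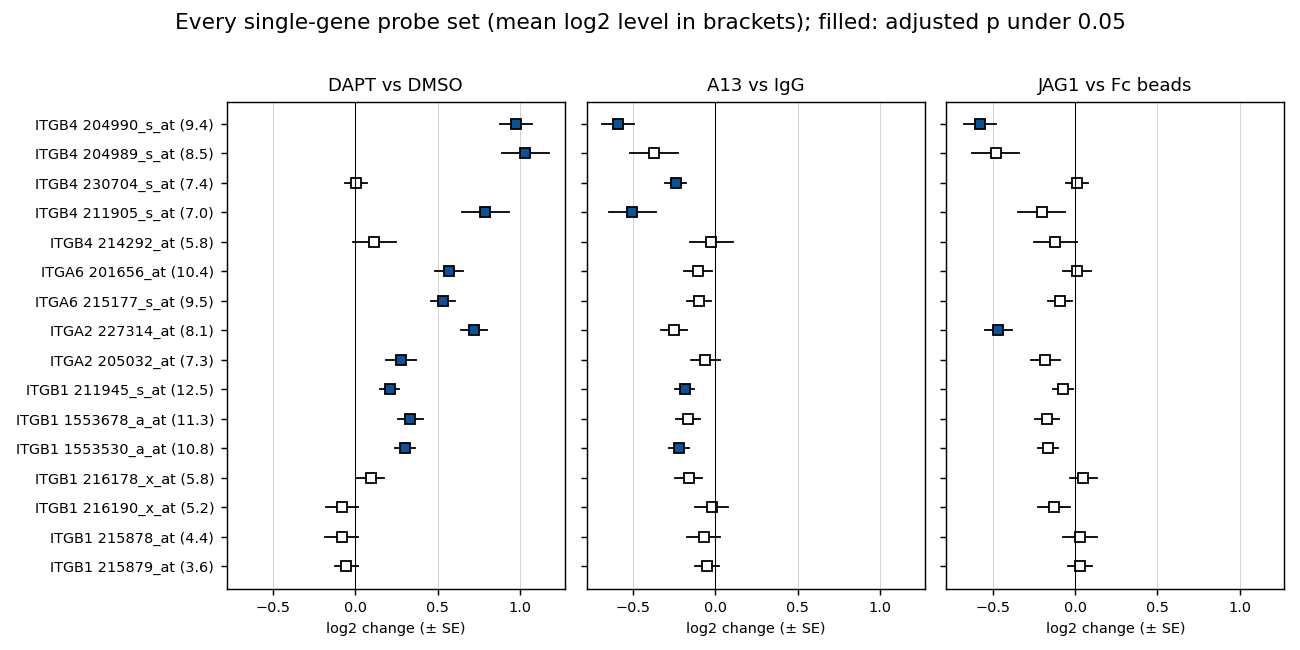
Log2 change with its SE (x axis) of every single-gene probe set of ITGB4, ITGA6, ITGA2 and ITGB1 (y axis, mean log2 level over all arrays in brackets) for DAPT against DMSO, A13 against IgG and JAG1 against Fc beads, filled where the adjusted p was under 0.05. For DAPT against DMSO, 3 ITGB4 probe sets lie between 0.79 and 1.03 and the other 2 at 0.00 and 0.11.

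Across the 18 arrays of the agonism experiment, which share their groups, ITGB4 and ITGA2 varied together (Pearson r = 0.92), as did ITGA2 and ITGB1 (0.90) and ITGB4 and ITGB1 (0.85). The 2 chains of the hemidesmosome integrin varied together less (ITGB4 and ITGA6, 0.44). These values describe arrays whose groups set most of the spread. Over all 26 arrays, each value taken as its deviation from the gene's mean in its experiment, the gene most like ITGB4 was GMDS (r = 0.95), followed by PDLIM5 and MLPH. The gene most like ITGA2 was DUSP2 (0.93), that most like ITGB1 was ACER3 (0.95) and that most like ITGA6 was PHF20 (0.91). For ITGA3 it was STK39 (0.83) and for LAMB3 AHNAK2 (0.75).

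Partners of the hemidesmosome were a list of 10 genes, of which 9 were measured. With DAPT against DMSO 3 of the 9 were higher and 0 lower, where 12.4% of all genes were higher and 8.31% lower. The median change was 0.17 beside 0.02 over all genes. CD151, a tetraspanin that binds laminin-receptor integrins, rose by 0.32 ± 0.08 and EPPK1, the plakin epiplakin, by 0.32 ± 0.11. PLEC, the plectin that joins ITGB4 to keratin, rose by 0.23 ± 0.07. With each array centred on its median, or quantile-normalised again, 1 of the 9 was called higher. After washout, EPPK1 (-0.39 ± 0.11) and PLEC (-0.25 ± 0.07) fell, while DSP, the desmoplakin of desmosomes, rose by 0.40 ± 0.08. DSP rose further with A13, by 0.68 ± 0.08 (adjusted p = 4.75e-06), and with JAG1, by 0.40 ± 0.08 (adjusted p = 0.00247), where ITGB4 fell. CD151 fell by 0.27 with JAG1 (adjusted p = 0.0492).

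Among 20 other integrin subunits, 3 were higher and 1 lower with DAPT against DMSO, with a median of 0.01. That share was close to that of all genes (12.4% higher and 8.31% lower). ITGB5, a partner of the alpha-V chain that binds vitronectin, rose by 0.62 ± 0.08 (adjusted p = 3.26e-05), ITGB2, the leukocyte beta chain, rose by 0.40 ± 0.07, and ITGAE, the alpha chain that binds E-cadherin, fell by 0.27. With A13, ITGB8 (0.47 ± 0.13) and ITGAV (0.24 ± 0.06) rose and ITGB2 fell (-0.27 ± 0.07), where 5.68% of all genes rose and 9.02% fell. With JAG1, ITGA7, a laminin-binding alpha chain, rose by 0.24 ± 0.07 (adjusted p = 0.0453) and 0 fell. Of all genes 2.97% rose and 5.14% fell in that comparison.

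Adaptors and focal adhesion genes, a list of 28 with 27 measured, were called as follows. With DAPT against DMSO 16 were higher and 1 lower, where 12.4% of all genes were higher, and the median change was 0.18 beside 0.02 over all genes. ZYX (zyxin) rose by 0.50 ± 0.12, TLN1 (talin, which joins beta chains to actin) by 0.48 ± 0.13 and ACTN4 (an actinin) by 0.46 ± 0.10. With each array centred 10 were higher and 2 lower, and after quantile normalisation 13 and 1. With A13 0 rose and 7 fell, where 9.02% of all genes fell, among them TNS3 (-0.44 ± 0.08), ZYX (-0.40 ± 0.12) and the tetraspanin CD63 (-0.39 ± 0.06). With JAG1, where 5.14% of all genes fell, 0 rose and 2 fell, CD63 (-0.29 ± 0.06) and PXN (paxillin, -0.28 ± 0.06). After washout 4 were higher and 1 lower than with DAPT, where 4.15% of all genes were higher, led by TNS1 (0.53 ± 0.09), FERMT2 (kindlin-2, 0.48 ± 0.06) and TLN2 (0.42 ± 0.07).

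In the antagonism experiment 0 genes of these lists were called by limma with DAPT or A4, where 0.354% and 0.101% of all genes were. In the difference of the DAPT effects, 5 of the 27 adaptors were lower and 0 higher, where 3.27% of all genes were lower. ZYX and TLN1 were each at -0.80. These lists, like the integrins, were drawn up with earlier results of these data known, and the counts describe them.

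**Figure D5:**
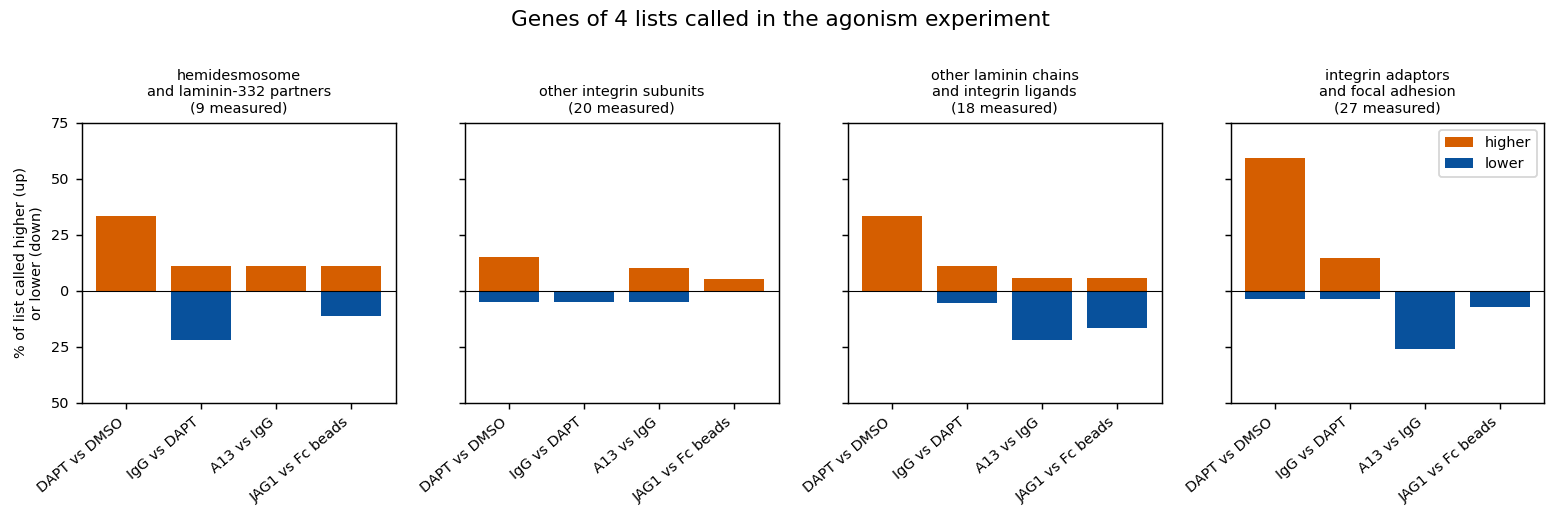
Share of each of 4 gene lists (y axis, percent of measured genes) called higher (up) or lower (down) in 4 comparisons of the agonism experiment (x axis). The adaptor list has 16 of 27 genes higher with DAPT against DMSO, and 7 of 27 lower with A13.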

How the data were processed

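Gene expression was measured on 26 Affymetrix HG-U133 Plus 2.0 arrays of MDA-MB-468 cells. The deposited table holds linear intensity values per probe set and array, from 7.12 to 32597. Per the submitters' processing notes RMA and R 2.10 were used, without their roles. RMA equalises array distributions, which would shrink a shift shared by most transcripts, and has no detection call. The build and any separate normalisation of the experiments are not given, so levels were compared within an experiment only.

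The deposited intensities were converted to log2. Of 54675 probe sets, 62 were controls, 41097 had 1 gene symbol in the platform annotation, 1801 several and 11777 none, and 41043 matched a gene ID of the reference table. Each gene was represented by its brightest single-gene probe set over all arrays. The table held 0 columns of other samples. Array medians lay between 7.60 and 7.65 (antagonism) and between 6.84 and 6.88 (agonism). The number of arrays limits the precision.

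Groups came from the treatment labels, and replicate numbers follow accession order. The fits used limma 3.58.1 (lmFit, contrasts.fit, eBayes) under R 4.3.3, all groups of an experiment together, with 5 residual degrees of freedom for antagonism, 12 for agonism and 17 where both experiments enter 1 fit. The method was tested on simulated data. Adjustment followed Benjamini-Hochberg over all genes. Summaries and figures used Python 3.11.15 and matplotlib 3.10.9.

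Named genes are the listed genes in every comparison, up to 3 called genes per other list and comparison with the largest changes, the 3 genes most like each listed gene, and MYC and other Notch-responsive genes as a check. The listed genes and the other lists were chosen with earlier results of these data known. Alternatives were the mean of a gene's probe sets, probe sets without _x_at and _s_at endings, median centring, quantile normalisation, 32 added before log2, a filter at the lower quartile of level, a fit of the compared groups alone, a trend and robust prior, and each array left out.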

Additional observations from a re-analysis of the deposited data

Results flagged for a closer look

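For 4 of the 6 genes the effect of DAPT differed between the experiments by the test of the difference itself (limma, 1 fit over all arrays, antagonism minus agonism). For ITGB4, the beta chain of the hemidesmosome integrin, the difference was -0.58, from effects of 0.40 and 0.98. For ITGA6, its alpha chain, it was -0.49, from 0.08 and 0.57. For ITGA2, the collagen-binding alpha chain, it was -0.74, from -0.02 and 0.72. For LAMB3, a chain of laminin-332, it was -0.68, from -0.48 and 0.20. Of the genes known to respond to Notch, MYC had a difference of -0.13 (adjusted p = 0.559), HES1 of -0.12 (adjusted p = 0.475) and NRARP of -0.05 (adjusted p = 0.847), while OLFM4 differed by 0.80 (adjusted p = 0.0246), from effects of -1.33 and -2.13.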

How the results depend on the processing

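Of 23 called results of the 6 genes, 10 kept their direction and call under every alternative run, and of 55 uncalled results 5 passed under some alternative. In the antagonism experiment the count called with DAPT went from 0 to 1 with quantile normalisation, to 1 with the trend and robust prior, and ran from 0 to 2 over arrays left out. Without _x_at and _s_at probe sets the counts fell from 2 to 1 for IgG against DAPT, from 2 to 1 for IgG against DMSO, from 3 to 0 for A13 against IgG and from 2 to 1 for JAG1 against Fc beads. ITGB4 is then read by its dimmest probe set and was not called in any of them, and with A13 ITGA2 (adjusted p = 0.0543) and ITGB1 (adjusted p = 0.185) were not called either. There the ITGB4 difference of DAPT effects reversed to 0.049 (adjusted p = 0.924), and ITGA3 has no probe set. With the mean of all probe sets, 1 gene stayed called with A13 and 1 with JAG1. With A13 1 was called after median centring and 1 in a fit of the compared groups alone. In that fit 1 gene was called in the difference of DAPT effects. With arrays left out, counts ran from 1 to 2 for IgG against DMSO, from 1 to 3 for A13 and from 2 to 4 for the difference of DAPT effects. Over all genes, arrays left out gave 11 to 1198 calls with DAPT in the antagonism experiment and 0 to 96 with A4. With antagonism control 1 as the only control, an alternative chosen after seeing the data, the ITGB4 difference was -0.53 (adjusted p = 0.0566). The causes of these shifts were not tested. No paired analysis was possible because the labels carry no replicate numbers.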

Other observations

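Other laminin chains and integrin ligands, a list of 19 genes with 18 measured, were called in both directions in the agonism experiment. With DAPT against DMSO 6 were higher and 0 lower, where 12.4% of all genes were higher and 8.31% lower. The largest changes were those of LTBP1, a binding protein of latent TGF-beta (0.61 ± 0.08, adjusted p = 3.79e-05), CCN2, a matricellular growth factor (0.57 ± 0.14), and TGFB1, the cytokine itself (0.46 ± 0.09). CCN2 was dim, at 5.61 with DMSO and 6.18 with DAPT, below the lower quartile of gene levels in this experiment (6.41). With each array centred on its median 6 of the 18 were higher and 1 lower. With A13 1 was higher and 4 were lower, where 5.68% of all genes were higher and 9.02% lower. Among the 4 were FN1, the fibronectin (-0.52 ± 0.14), TGFB1 (-0.51 ± 0.09) and LTBP1 (-0.46 ± 0.08). With JAG1 1 was higher and 3 were lower, where 2.97% of all genes were higher and 5.14% lower. THBS1, a thrombospondin, was at 0.64 ± 0.07 and TGFB1 at -0.34 ± 0.09.

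After washout with IgG, CCN1 rose by 0.83 ± 0.08 (adjusted p = 1.36e-06) and FN1 by 0.60 ± 0.14 over the level with DAPT. Fc beads against IgG gave 3 genes of this list higher and 0 lower, where 2.08% of all genes were called in either direction. CCN2 was higher by 0.89 ± 0.14 (adjusted p = 0.00164), CCN1 by 0.36 ± 0.08 and LAMC1, a laminin gamma chain, by 0.33 ± 0.07. In the difference of the DAPT effects 4 were lower and 0 higher, where 3.27% of all genes were lower. TNC (tenascin-C) was at -1.15 ± 0.28 and CCN2 at -0.84 ± 0.22. Both were dim in the antagonism experiment, below the lower quartile of gene levels there (7.23). TNC was at 6.12 with DAPT and 7.09 in the control, and CCN2 at 6.79 and 7.06.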
